A study of Homo sapiens with 6 samples.

Results

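The colony-stimulating factors CSF1, CSF2 and CSF3 and the interleukins and related cytokines IL24, IL6, IL11, LIF, IL1A, IL1B and IL18 form a set of 10 genes for secreted proteins that cells use to signal to leukocytes and to one another. They were followed in MDA-MB-231, a human cell line established from a triple-negative breast carcinoma. The set was defined by gene symbol, with the probe set of highest mean taken for each gene. Of the 10 genes, 6 had a probe set under their name in the annotation used here, among 14884 genes tested by name. These were CSF1, CSF3, IL24, IL11, LIF and IL18, each with 1 probe set. No probe set carried the name of CSF2, IL6, IL1A or IL1B, so those 4 genes have no values here.

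The study set control MDA-MB-231 cells beside NR1D1 knockout cells of the same line. NR1D1 is the gene for REV-ERBα, a heme-binding nuclear receptor of the circadian clock that represses transcription. Cells of both genotypes had spent 72 h with 200 µM hydrogen peroxide, an oxidant, before total RNA was taken, and each genotype was measured on 3 GeneChip whole-transcript arrays. The comparison therefore asks how cytokine transcripts differ between knockout and control cells under oxidative stress. With no untreated arrays used here, a difference in the response to peroxide cannot be told apart from one present before it. The labels call the arrays of a genotype biological replicates but do not say whether they came from separate cultures, nor whether the knockout is a single clone or a pool, so the p-values measure array-to-array spread only, and some of that may be technical. The kind of control line is not described.

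Colony-stimulating factors drive the production, survival and activation of myeloid cells: CSF1 acts on macrophages through the receptor kinase CSF1R, and CSF3 on neutrophils through CSF3R. LIF and IL11 belong to the IL6 family, whose receptors share the chain IL6ST and signal through JAK kinases and STAT3, with SOCS3 as an induced inhibitor. IL24 belongs to the IL10 family, and IL18, like IL1A and IL1B, is a cytokine whose receptors signal through the adaptor MYD88 and the IRAK kinases. Breast carcinoma cells are known to secrete several of these proteins, and NF-κB and AP-1 are known activators of many of their genes. REV-ERBα is known to bind an AGGTCA half-site that follows an A- and T-rich stretch.

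Among the genes with values, IL24 fell the most and IL11 had the highest change, and the windows just upstream of their start sites are shown so that the recognition letters of these factors can be looked for. No such window was at hand for CSF1, CSF3, LIF or IL18, so these are the only measured genes of the set that could be shown. The sequences are from RefSeq (GRCh38.p14), run 5′ to 3′ on the gene's own strand, and end at the base before the start site. The IL24 window is chr1:206897193-206897442 on the plus strand and the IL11 window chr19:55370464-55370713 on the minus strand, each of 250 bases. Capitals mark matches to any of the motifs named after the sequences.
IL24: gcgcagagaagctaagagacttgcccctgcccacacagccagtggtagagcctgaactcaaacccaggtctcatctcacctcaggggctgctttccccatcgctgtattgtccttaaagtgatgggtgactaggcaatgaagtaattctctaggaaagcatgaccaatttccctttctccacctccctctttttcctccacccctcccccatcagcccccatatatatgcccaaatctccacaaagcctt
IL11: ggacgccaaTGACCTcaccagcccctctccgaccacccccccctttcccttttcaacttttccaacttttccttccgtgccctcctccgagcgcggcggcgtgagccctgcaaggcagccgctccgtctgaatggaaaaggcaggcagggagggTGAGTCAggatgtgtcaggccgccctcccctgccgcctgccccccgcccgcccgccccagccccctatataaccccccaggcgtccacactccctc

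The motifs searched on both strands were the AP-1 site TGACTCA, the half-site AGGTCA, the TATA box TATAAA and the κB site of NF-κB. The IL11 window held AP-1 letters on the reverse strand at positions -96 to -90 and the half-site on the reverse strand at -241 to -236, counted from the start site. Read on its own strand, that half-site follows a G-rich stretch and not an A- and T-rich one. The IL24 window held none of the 4 motifs, which says only that these letters are not in it. Over the 35116 windows of 300 bases in the RefSeq table, 4.95% held the AP-1 letters, 13.8% the half-site, 11.5% the TATA box and 5.91% the κB site. The motifs do not overlap one another in the IL11 window, and a match is a run of letters, not a measured binding site. IL11 was also the more GC-rich of the pair, with 67.2% G or C against 51.6% for IL24.

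The deposited values are on a log2 scale, so that a difference of 1 is a doubling, and the 6 arrays had medians between 5.18 and 5.22 over 53617 probe sets. NR1D1 had no named probe set either, which leaves its own transcript, and so the knockout, unchecked here. Of 7 genes known to be high in MDA-MB-231, 6 were measured (among them VIM, CD44, EGFR and AXL), and their median level per array was 10.02 to 10.19. Of 7 luminal, epithelial or basal genes known to be low in the line, 5 were measured, with a median level per array of 4.93 to 5.43, although EPCAM stood at 7.22 and GATA3 at 7.48 in control arrays. Between genotypes GATA3, of luminal cells, was lower (log2 change -0.73, adjusted p = 0.00166). The epithelial adhesion gene EPCAM was higher (0.40, adjusted p = 0.0286), the intermediate filament gene VIM higher (0.34, adjusted p = 0.0337) and the hyaluronan receptor gene CD44 lower (-0.35, adjusted p = 0.0324). EPCAM and VIM missed the threshold when any 1 array but knockout replicate 1 was left out (highest adjusted p = 0.101 and 0.117), and CD44 with any 1 array left out (0.052 to 0.112). Of 14 leukocyte markers 7 were measured, and 1 fell, CD68, whose product is a lysosomal protein made by many cell types (log2 change -0.45, adjusted p = 0.0167, lost without any 1 control array, highest adjusted p = 0.066). The median level of the 7 was 5.64 to 5.80 on control and 5.28 to 5.66 on knockout arrays, and their summed linear level was 2156 to 2200 and 1512 to 1775. Most of that sum is CD68, and the other 6 markers summed to 280 to 327 on control and 266 to 295 on knockout arrays. The lists for fibroblasts (3 of 9 measured) and endothelial cells (4 of 6) had 1 call, the receptor gene KDR, which was higher in the knockout. The part of such marker levels in the cytokine results was not tested.

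Knockout arrays had lower levels of IL24, CSF1, CSF3 and LIF, and none of the measured cytokine genes of the set rose by the test. By limma with Benjamini-Hochberg adjustment over all 14884 genes, 4 of 6 were lower and 0 higher at an adjusted p of 0.05. Over all genes tested, 4.74% were lower and 4.74% higher, or 9.49% in either direction. At an unadjusted p of 0.05 the remaining 2, IL11 and IL18, were higher, as were 11.9% of all genes. The median log2 change of the 6 genes was -0.44 and that of all genes 0.0039. The 3 knockout values lay entirely below the 3 control values for 4 of the 6 genes and entirely above for the other 2, so the groups of all 6 were apart. Over all genes the groups were apart for 28.7%, with 13.6% entirely below and 15.1% entirely above. As these are whole cultures, fewer cells expressing a gene and less RNA per cell cannot be told apart.

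**Figure D1:**
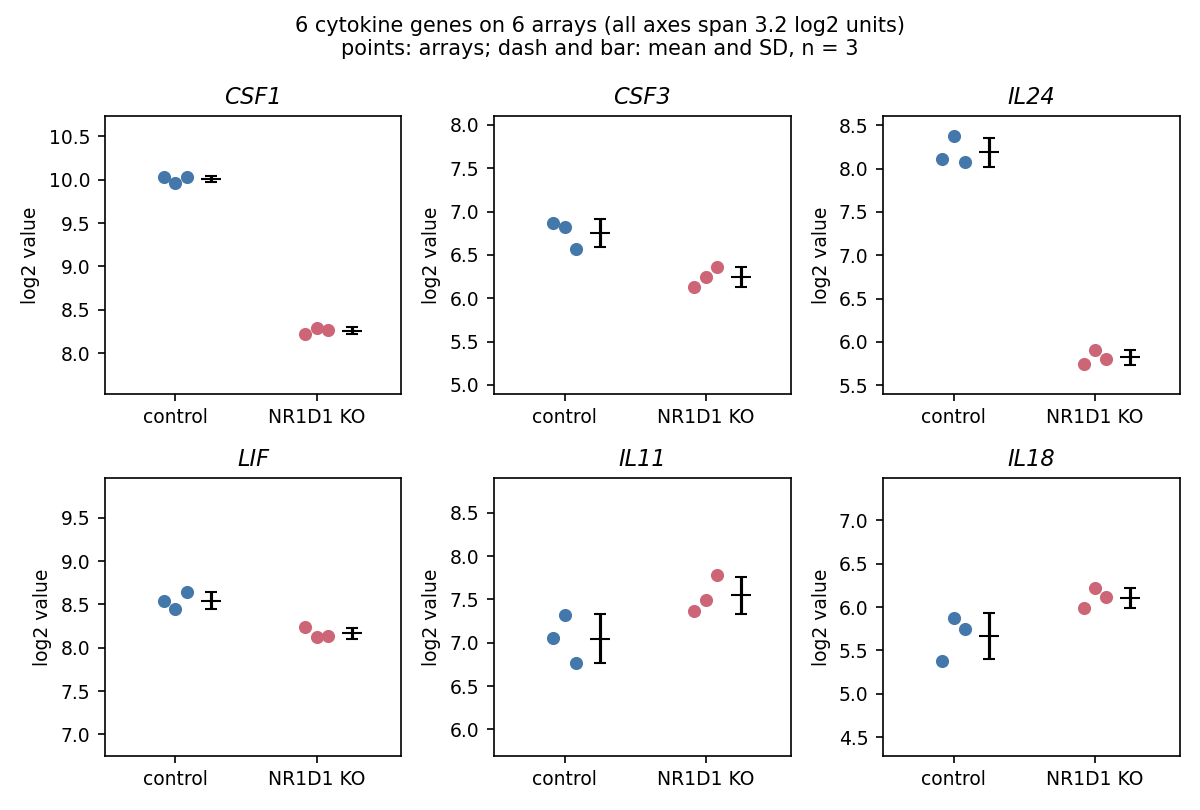
Deposited log2 value (vertical axis, 3.2 log2 units in every panel) of the 6 measured genes on each control and NR1D1 knockout array; points are arrays, and the dash and bar are the mean and SD of 3. CSF1 and IL24 are separated by far more than the spread within a group, while the groups of IL11 lie only 0.039 apart at their nearest values.

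IL24, a cytokine of the IL10 family known for its effects on epithelial and tumour cells, had the largest change of the set. Its probe set (16676682, chromosome 1) read 8.11, 8.38 and 8.07 on the control arrays and 5.74, 5.91 and 5.81 on the knockout arrays (log2). Every knockout array was more than 2 log2 units below the lowest control array, with a gap of 2.16 between the groups and a range of 0.30 within control. The level fell from 8.19 ± 0.17 to 5.82 ± 0.084 (SD, n = 3 each), which is 5.15-fold lower with a 95% interval of 4.37 to 6.08 (limma, adjusted p = 2.74e-05). Only 3 of the 14884 genes had a lower log2 change. The knockout level lay within 1 log2 unit of the array medians, and with no detection calls at hand the floor of the array may limit this fold.

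CSF1, the growth factor of macrophages, was read by probe set 16668420 (chromosome 1) at 10.03, 9.97 and 10.03 on control arrays and at 8.22, 8.29 and 8.27 on knockout arrays (log2). The groups were 1.68 apart, and neither ranged over more than 0.074. CSF1 fell from 10.01 ± 0.036 to 8.26 ± 0.038 (SD, n = 3 each), or 3.36-fold, with an interval of 2.98 to 3.79 (limma, adjusted p = 2.74e-05). It had the smallest spread of the 6 genes and stood 14th from the lowest change among all genes. The calls of IL24 and CSF1 held in each of the 16 alternative analyses, with log2 changes between -2.42 and -2.27 for IL24 and between -1.77 and -1.73 for CSF1.

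CSF3, the neutrophil growth factor known as G-CSF, showed a smaller change. Its probe set (16833953, chromosome 17) read 6.87, 6.82 and 6.57 on control and 6.13, 6.25 and 6.36 on knockout arrays (log2). The groups did not overlap, but their gap of 0.20 was smaller than the range within either. CSF3 fell by 0.50 ± 0.11 on the log2 scale (SE), or 1.42-fold, with a log2 interval of -0.75 to -0.26 (limma, adjusted p = 0.0235). The call was lost without control replicate 1 (adjusted p = 0.0866) or 2 (0.0803) or knockout replicate 1 (0.0695) or 2 (0.0716), and against a minimum change of 1.2-fold (adjusted p = 0.495).

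LIF, the leukemia inhibitory factor of the IL6 family, read 8.54, 8.44 and 8.64 on control and 8.24, 8.13 and 8.13 on knockout arrays (log2, probe set 16933760, chromosome 22). The highest knockout array was 0.21 below the lowest control array, about the range within control of 0.20. LIF fell by 0.38 ± 0.086 on the log2 scale (SE), or 1.30-fold with an interval of 1.13 to 1.49 (limma, adjusted p = 0.0309). This was the least secure of the 4 calls by adjusted p, and it was lost on leaving out control replicate 1 (0.0933) or 3 (0.118) or knockout replicate 2 (0.0976) or 3 (0.0846), and against a minimum change of 1.2-fold (adjusted p close to 1). Without control replicate 1 or without knockout replicate 2 the number of genes of the set called lower was therefore 2, IL24 and CSF1.

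IL11, a cytokine of the IL6 family known for its part in fibrosis and bone turnover, went the other way without passing the test. It read 7.05, 7.32 and 6.76 on control and 7.36, 7.49 and 7.78 on knockout arrays (log2, probe set 16875754, chromosome 19). Both groups were spread widely, with ranges of 0.56 and 0.42, and the lowest knockout array was 0.039 above the highest control array. The log2 change was 0.50 ± 0.16 (SE), with a 95% interval of 0.14 to 0.86 (limma, adjusted p = 0.0966). IL11 passed with a trended, robust prior (adjusted p = 0.0434) and when the dimmest 50% of genes were left out (adjusted p = 0.0326).

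IL18, a cytokine made as a precursor and cut by caspase 1, read 5.37, 5.88 and 5.74 on control and 5.98, 6.22 and 6.12 on knockout arrays (log2, probe set 16744415, chromosome 11). The groups were 0.11 apart, and the control range of 0.50 owed most to control replicate 1, the lowest array. The log2 change was 0.44 ± 0.14 (SE), with an interval of 0.13 to 0.75 (limma, adjusted p = 0.0862). It passed when the dimmest 25% of genes were left out (adjusted p = 0.0487). For both IL11 and IL18 the upper end of the interval lies beyond the size of the CSF3 change, so a miss of the threshold does not show that they were level.

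**Figure D2:**
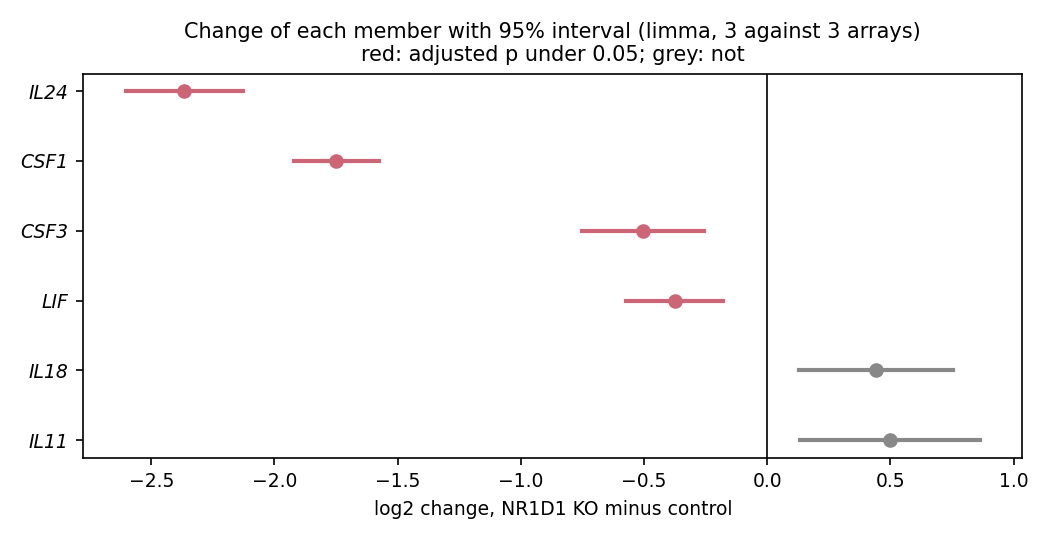
Log2 change of each measured gene, knockout minus control (horizontal axis), with its 95% interval from limma over 3 against 3 arrays; red marks an adjusted p under 0.05. The intervals of IL24 (-2.60 to -2.13) and CSF1 (-1.92 to -1.58) lie far below those of CSF3 (-0.75 to -0.26) and LIF (-0.57 to -0.18), and IL18 and IL11 lie above 0.

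The genes were ordered by their change, and the 5 neighbouring pairs in that order were compared through the difference of the 2 genes on each array. The order comes from the same values, and with 3 against 3 arrays no pair could pass the threshold, so the differences are a description. The log2 change of IL24 minus that of CSF1 was -0.62 ± 0.12 (SE), and that of CSF1 minus that of CSF3 was -1.24 ± 0.12. CSF3 minus LIF gave -0.13 ± 0.17 and IL18 minus IL11 gave -0.057 ± 0.23, so neither pair differed beyond its spread. LIF minus IL18 gave -0.82 ± 0.20. The exact two-sided permutation test over arrays gave p = 0.1 for IL24 against CSF1, CSF1 against CSF3 and LIF against IL18, which is the smallest p that 3 against 3 arrays allow (adjusted p = 0.167 over the 5 pairs). The same exact permutation test gave p = 0.5 for CSF3 against LIF and p = 1 for IL18 against IL11 (adjusted p = 0.625 and 1).

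Among the receptors for these cytokines LIFR was higher and the antagonist gene IL1RN lower, and the other measured ones did not pass the test. Of 18 listed receptor chains, decoys and antagonists 10 were measured, of which 1 rose and 1 fell, with a median log2 change of 0.056. The share called was 20%, against 9.49% of all genes in either direction. LIFR, the receptor chain that binds LIF, read 8.24, 8.32 and 8.31 on control and 9.06, 9.02 and 8.86 on knockout arrays (log2). It rose 1.61-fold (limma, adjusted p = 0.00211), so receptor and ligand transcripts moved in opposite directions. IL1RN, the secreted antagonist of IL1A and IL1B, fell by 0.42 ± 0.082 on the log2 scale (SE, adjusted p = 0.0163), a call lost on leaving out control replicate 1 or 3 or knockout replicate 2 or 3 (highest adjusted p = 0.0659). CSF1R had means of 6.08 (control) and 6.16 (knockout, adjusted p = 0.633) and CSF3R of 4.86 and 4.82 (adjusted p = 0.842).

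Among signal transducers IRAK2 and JAK1 had the largest falls and SOCS3 rose. Of 24 listed genes 17 were measured, of which 3 fell and 1 rose, with a median log2 change of -0.13. The share called was 23.5%, against 9.49% of all genes in either direction. IRAK2, a kinase-like adaptor of IL1 and IL18 receptors, read 8.55, 8.53 and 8.79 on control and 7.40, 7.40 and 7.65 on knockout arrays (log2) and was 2.20-fold lower (limma, adjusted p = 0.000564). JAK1, a kinase of the receptors for IL6-family and IL10-family cytokines, read 10.59, 10.58 and 10.62 on control and 9.48, 9.70 and 9.66 on knockout arrays (log2) and was 1.98-fold lower (adjusted p = 0.000382). For both genes every knockout array lay below every control array. SOCS3, the feedback inhibitor of IL6-family receptors, rose from 7.18 ± 0.055 to 7.86 ± 0.15 (log2, SD, n = 3 each, adjusted p = 0.00358). A second, dimmer probe set of SOCS3 changed by 0.29 ± 0.24 (SE), and the mean of both did not pass. IRAK3, an inhibitory member of the IRAK family, was lower by a log2 change of -0.40 (adjusted p = 0.032), but missed the threshold when any 1 of the 6 arrays was left out (0.0528 to 0.119), and its second probe set changed by 0.018. STAT3 itself had a log2 change of 0.063 (adjusted p = 0.689).

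Genes that process these cytokines or degrade their messages gave 1 call each. These were 16.7% and 11.1% of the measured genes, against 9.49% of all genes in either direction. Of 16 processing genes (inflammasome parts, caspases, sheddases) 6 were measured, none of them a caspase. Among these 6 the median log2 change was -0.17, with none higher and 1 lower. That gene was AIM2, an inflammasome sensor of DNA upstream of IL1B and IL18 maturation, which fell by 0.65 ± 0.11 on the log2 scale (SE, adjusted p = 0.0101). Of 15 genes of cytokine mRNA decay 9 were measured, with 1 lower, none higher and a median of 0.079. ZC3H12A, which encodes an endonuclease that cuts the messages of IL6 and other cytokines and is itself induced by IL1, read 7.82, 7.81 and 7.75 on control and 6.52, 6.69 and 6.73 on knockout arrays (log2). It was 2.22-fold lower (limma, adjusted p = 0.000178) with no overlap between the groups. TIA1, an RNA-binding repressor of translation, had a log2 change of 0.40 that just missed the threshold (adjusted p = 0.0514). TIAL1, also on the decay list, had 2 probe sets, and the brighter one, used here, changed by 0.026. The dimmer one changed by -0.53 (limma over all probe sets, adjusted p = 0.0109), so its 2 probe sets disagree.

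Among other cytokines EBI3, IL32 and IL34 were lower and IL7 higher, and the rest did not pass the test. Of 46 listed relatives 32 were measured, of which 3 fell and 1 rose, with a median log2 change of -0.0019. EBI3, the shared subunit of IL27 and IL35, read 6.35, 6.54 and 6.61 on control and 5.32, 5.68 and 5.78 on knockout arrays (log2) and was 1.87-fold lower (limma, adjusted p = 0.00463). IL32, a cytokine gene of human cells that is induced by inflammatory signals, read 6.31, 6.33 and 6.29 on control and 5.42, 5.21 and 5.73 on knockout arrays (log2) and was 1.81-fold lower (adjusted p = 0.00484). Control arrays of IL32 were nearly identical, and its spread came from the knockout arrays. IL34, the other ligand of CSF1R, was 1.57-fold lower (limma, adjusted p = 0.0183), so the transcripts of both ligands of that receptor were lower. IL34 had means of 5.70 in control and 5.05 in knockout arrays, the latter below every array median. With no detection calls, the floor of the array may limit its fold and those of EBI3 and IL32. The call of IL34 was lost without control replicate 3 or knockout replicate 2 or 3 (highest adjusted p = 0.0681). IL7, a lymphocyte growth factor, rose by 0.61 ± 0.14 on the log2 scale (SE, adjusted p = 0.0301) from a low level of 3.62. It was not tested when the dimmest genes were left out, and its call was lost on leaving out control replicate 1 or 3 or knockout replicate 1 or 2 (highest adjusted p = 0.1). Over the 5 lists together, 9 of 74 measured genes were lower and 3 higher, or 16.2%, against 9.49% of all genes. The lists were chosen with earlier results of these data known, so this comparison is a description only.

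**Figure D3:**
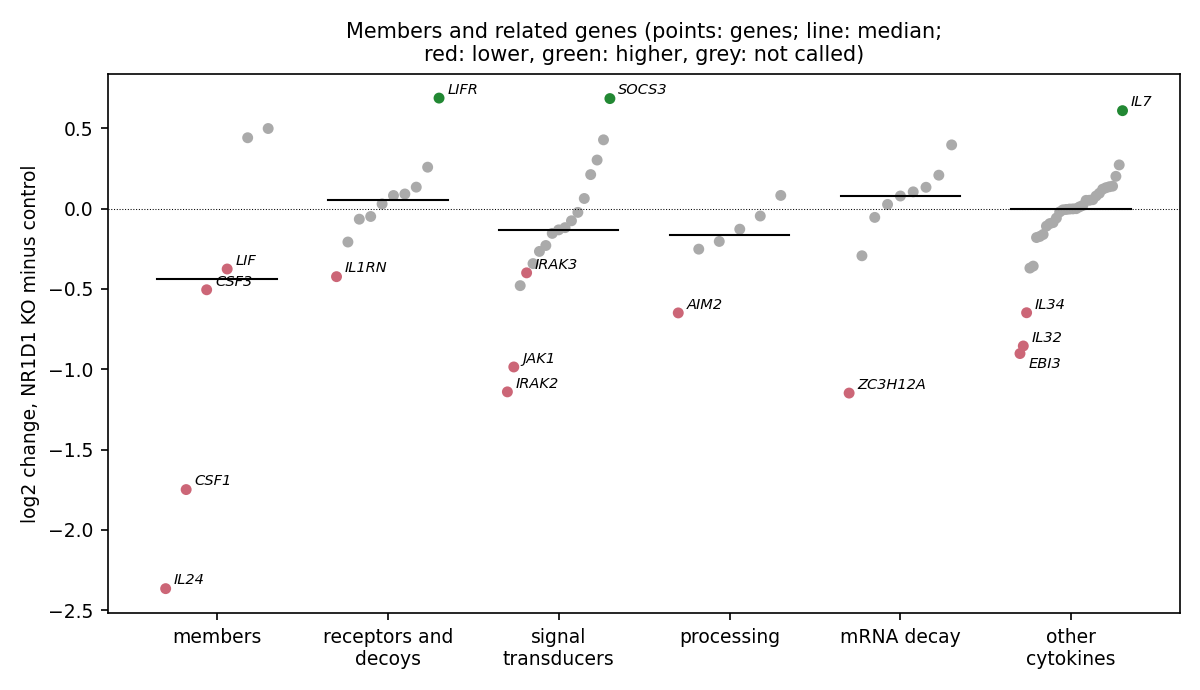
Log2 change, knockout minus control (vertical axis), of each measured cytokine of the set and of each measured gene in 5 related lists; a point is a gene, the line is the list's median, and called genes are named, with red for lower and green for higher. IL24 (-2.37) and CSF1 (-1.75) lie below every related gene, of which ZC3H12A (-1.15) and IRAK2 (-1.14) are the lowest.

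The genomic neighbours of the set were looked at next. For each gene the 10 nearest measured coding genes in RefSeq order, 5 on each side, were taken, a step added after the values were seen. CSF1 had 4 of its 10 neighbours lower and none higher, 9 of 10 with a negative log2 change, and a median of -0.23. Over all genes tested, 4.74% were lower and 49.0% had a negative log2 change. The lowest of the 10 was AHCYL1, which encodes a regulator of calcium release, at -0.79 (limma, adjusted p = 0.000569). LAMTOR5, a lysosomal scaffold gene, followed at -0.67 (0.00615). The change of CSF1 itself, -1.75, was below that of each of the 10. A fixed list of genes around CSF1 had 4 of 9 measured genes lower, led by the AMP deaminase gene AMPD2 (-0.81, limma, adjusted p = 0.00107). Most of these 9 genes are also among the 10 neighbours, including the called AHCYL1 and GSTM3, so the list is not a separate look. Of the other 2 called from that list besides AHCYL1, GSTM4 (-0.56) lost its call without knockout replicate 1 or 2 (highest adjusted p = 0.0802), and GSTM3 (-0.49) without any 1 control replicate or with knockout replicate 1 or 3 left out (highest adjusted p = 0.0993). The glutathione transferase genes GSTM1 to GSTM5 are close copies that can share probe signal. What part of the CSF1 change is shared with its stretch of chromosome 1 was not tested.

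No measured neighbour of IL24 changed by the test. IL24 sits with IL10, IL19 and IL20 in a cluster of family members on chromosome 1, and its 10 nearest measured coding genes had log2 changes between -0.24 (C1orf116) and 0.14 (IL20). IL10 changed by -0.0073 and IL19 by -0.11. All 10 neighbours lay more than 2 log2 units above IL24 on the scale of change. IL10 and IL20 had control means of 3.43 and 4.25, below every array median, and the control mean of IL19 lay within the range of the medians. With no detection calls, the floor of the array may limit any fall of IL10, IL19 and IL20, so their small changes do not show that they were level.

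CSF3 lies close to NR1D1 itself on chromosome 17. Of its 10 nearest measured coding genes none was lower and 1 was higher, CDC6, which encodes a replication licensing factor (log2 change 0.39, adjusted p = 0.0183). That call was lost when any 1 control array or knockout replicate 2 was left out (highest adjusted p = 0.069). MED24, a Mediator subunit gene and the next measured coding gene after CSF3 in RefSeq order, changed by 0.15 (adjusted p = 0.301), opposite in sign to CSF3. LIF had no called neighbour either, and the cytokine gene OSM beside it, also of the IL6 family, changed by 0.20 (adjusted p = 0.2). Neither IL18 nor IL11 had a called gene among the 10 nearest. The measured genes on either side of IL18, TIMM8B and TEX12, had log2 changes of 0.091 and -0.15 (adjusted p = 0.66 and 0.55). PIH1D2, also among the 10 nearest to IL18, had the highest change of them, 0.46 (limma, adjusted p = 0.205). That is above the 0.44 of IL18 itself, and neither gene was called.

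**Figure D4:**
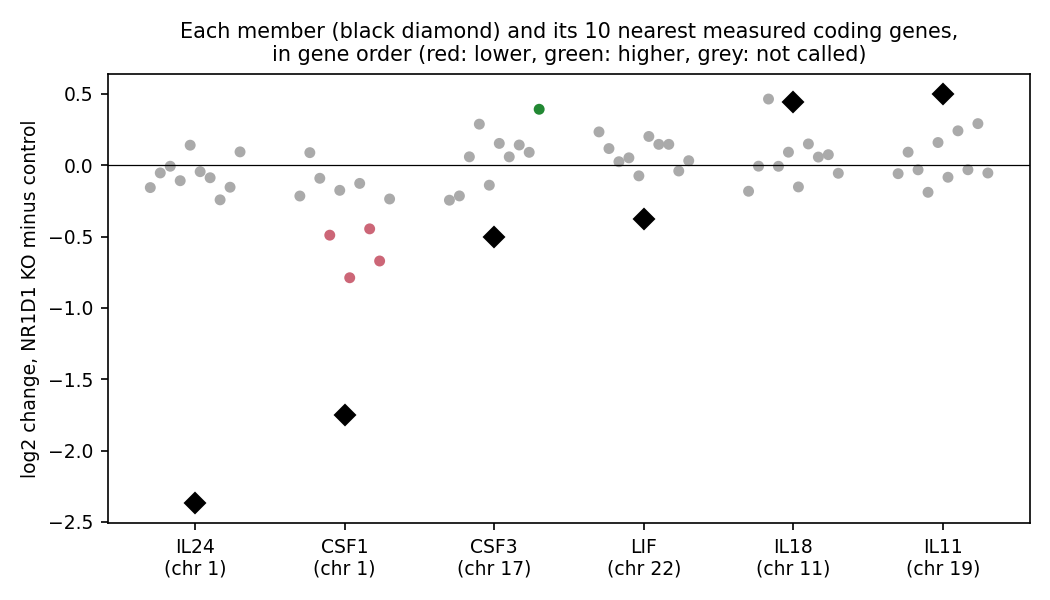
Log2 change, knockout minus control (vertical axis), of each cytokine gene (black diamond) and of its 10 nearest measured coding genes in gene order (points; red lower, green higher, grey not called). CSF1 has 4 called neighbours, all lower, while IL24, LIF, IL18 and IL11 have none.

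The genes whose values over the 6 arrays, each centred on its own mean, lay nearest to a called cytokine were found by root mean square distance on the log2 scale. For CSF1 they were TLR2, a receptor of bacterial lipopeptides (distance 0.078, 3.28-fold lower), PDE4DIP (0.087, 3.50-fold lower) and DPP4, for a peptidase of the cell surface (0.088, 3.63-fold lower). PDE4DIP has near-identical copies in the genome, which makes its value uncertain. For IL24 they were the lysosomal protease gene CTSS (0.091, 4.62-fold lower), the complement gene C3 (0.10, 5.29-fold lower) and CEMIP, of hyaluronan breakdown (0.21, 4.15-fold lower). CEMIP was farther from IL24 than the other 2 were. For CSF3 they were GSAP (0.043), the complement inhibitor gene CFI (0.045) and CNKSR1 (0.046), with log2 changes of -0.49, -0.56 and -0.54. For LIF they were NABP1, of single-stranded DNA binding (0.022), DDAH1, of methylarginine breakdown (0.036), and the actin-binding gene LIMA1 (0.041), with changes of -0.38, -0.37 and -0.35. With no detection calls, the floor of the array may limit changes that end at a low knockout mean, such as those of C3 (5.44), DPP4 (5.76) and CFI (5.25). Genes so chosen share the change of the cytokine they resemble, so their own test adds no support. Several lost their call when 1 array was left out. GSAP missed it without control replicate 1 or 2 (highest adjusted p = 0.0554), CNKSR1 without either of these or knockout replicate 1 or 2 (0.0795), and NABP1 on leaving out control replicate 1 or 3 or knockout replicate 2 or 3 (0.111). DDAH1 and LIMA1 missed it without any array but knockout replicate 1 (0.112 and 0.103).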

How the data were processed

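Per the labels' protocols, total RNA was copied and biotin-labelled for whole-transcript GeneChips. The table the authors deposited holds 1 log2 value per probe set and array, taken as log2 because the values run from 1.16 to 13.75. The array medians lay close together, between 5.18 and 5.22, which does not by itself show how the arrays were normalized. For the software, background correction and probe set summary the method was not stated in the labels or the table. An error in the scale would change every fold. No detection calls were at hand. A rule meant to mark dim genes by olfactory receptor genes could not be applied, since too few are named.

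Of 53617 probe sets, 16098 had 1 gene symbol, 0 several and 37519 none in the platform table. All 16098 matched RefSeq (GRCh38.p14) by gene identifier. The brightest probe set per gene was kept, leaving 14884 genes. The 3 control and 3 knockout arrays went into a two-sided limma fit (version 3.58.1, R 4.3.3, lmFit and eBayes). Its p-values were adjusted by Benjamini-Hochberg across the 14884 genes (threshold 0.05). The fit was also run on simulated data with independent genes, which does not give its error rate on these arrays. Pairs of genes were compared by exact permutation over arrays. Precision is limited by the number of arrays, with a median standard error of 0.101 for a log2 change. Named genes were all measured members, up to 4 called genes per list, the 3 nearest in profile to each called member, and neighbours. Genes named besides these (CSF1R, CSF3R, STAT3, TIA1, TIAL1, IL10, IL19, IL20, OSM, TIMM8B, TEX12, PIH1D2, LAMTOR5, C1orf116) were chosen after their values were seen. The genes and lists were chosen with earlier results of these data known. Figures were drawn with matplotlib 3.10.9.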

Additional observations from a re-analysis of the deposited data

How the results depend on the processing

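Alternatives were quantile normalization of the deposited values, median centring, dropping the dimmest 25% or 50% of genes, and averaging or separately testing probe sets. Further ones were a trended robust prior, array weights, the replicate number as a block, treat with a minimum of 1.2-fold, and 6 fits with 1 array left out. No measured gene of the set changed sign in any of the alternatives, and IL24 and CSF1 were called in all 16. The count of lower genes of the set (4 of 6) was 2 with treat and 2 to 3 without any 1 array, and the count of higher genes (0) was 1 with the dimmest 25% left out (IL18), 1 with the dimmest 50% left out (IL11) and 1 with the robust prior (IL11). IL18 was itself left out with the dimmest 50%. Replicate numbers did not pair the arrays: deviations of same-numbered arrays correlated at 0.055, 0.068 and -0.11. With the replicate block 2 genes of the set were lower and 1 higher, since CSF3 (adjusted p = 0.063) and LIF (0.0624) missed the threshold and IL18 passed (0.046), and 1050 of all genes were called. Of all genes, 1412 were called (706 higher, 706 lower), against 333 (124 and 209) with treat and 723 to 1049 (336 to 518 higher, 387 to 531 lower) without any 1 array. The count of lower related genes (9) was 5 with treat, 6 to 10 without any 1 array and 13 with the trended robust prior. The count of higher related genes (3) was 2 to 4 over the alternatives, but not always of the same genes: IL7 was not tested with the dimmest genes left out, and SOCS3 missed the threshold with probe sets averaged.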

Other observations

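IL1A and IL1B have no values here, but other genes around them on chromosome 2 do. Of 14 listed neighbours 7 were measured, of which 2 were lower in the knockout and none higher, with a median log2 change of -0.087. Over all genes tested, 4.74% were lower. PSD4, which encodes an exchange factor for a small GTPase, read 6.32 ± 0.082 in control and 5.74 ± 0.079 in knockout arrays (log2, SD, n = 3 each; limma, adjusted p = 0.00484), and IL1RN was the other. The family members IL37 (3.10 and 3.02) and IL36RN (5.27 and 5.25) were not called, nor was CKAP2L, a mitotic spindle gene next to IL1A (log2 change -0.13, adjusted p = 0.39).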
